A study of Mus musculus with 8 samples.

Results

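The imprinted gene loci described here are 32 mouse genes, of the 32088 protein-coding and long noncoding genes of GENCODE release M21 on mm10, chosen by name from the textbook imprinted clusters. For each gene, peaks of open chromatin were taken within 1 kb of any annotated transcription start site (TSS, called the promoter below) and within the gene body plus 10 kb on each side (the locus). The assay was ATAC-seq, a method that marks open DNA by where a transposase can insert adapters, and the cells were SN4741, a mouse line of embryonic substantia nigra origin labelled as neural precursor cells of WT genotype. The study evaluated the line as a stand-in for midbrain dopaminergic neurons and asked how its open chromatin changes when the cells are made to differentiate. Of the 8 libraries, 4 came from cells grown at 37 °C in medium with 10% serum and 4 from cells shifted for 48 h to 39 °C with 0.5% serum, so temperature and serum cannot be told apart. All 8 libraries carry the same immortalising gene, a temperature-sensitive T antigen driven by a tyrosine hydroxylase promoter, whose activity is described as lower at 39 °C and was not measured here. The line is 1 cell line, and its karyotype in the study was polyploid and unstable. Nothing in the labels says that the replicates came from separate cultures, so p-values measure the spread between these libraries.

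Imprinted genes are expressed from the maternal or the paternal copy alone, according to DNA methylation set down in the egg or sperm at differentially methylated regions. The genes lie in clusters, in which a methylated or unmethylated control region, often the promoter of a long noncoding RNA, governs several neighbours, and the unmethylated copy of a control region is usually the open one. Many paternally expressed members promote growth and many maternally expressed ones restrain it. The peak lists do not separate the parental copies, so a peak here can come from one copy or both, and in a bulk library a region open in fewer cells cannot be told apart from one less open in every cell.

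Sequences of 201 bp around the summit are given for 4 of the regions on which the results below turn, from the mm10 genome and on the strand of the named gene, 5′ to 3′. The first is the region upstream of H19, and the others are promoters called in all 8 libraries. Capitals mark matches on either strand to TGCCGC, the core bound by the imprint-protecting protein ZFP57, or to GGNGGCAG, part of the CTCF motif.
H19 upstream region (chr7:142580436-142580636, minus strand): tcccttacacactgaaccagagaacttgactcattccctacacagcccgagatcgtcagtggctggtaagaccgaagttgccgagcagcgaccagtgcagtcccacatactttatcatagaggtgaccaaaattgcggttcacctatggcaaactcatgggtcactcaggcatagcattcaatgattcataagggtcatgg
Kcnq1ot1 promoter (chr7:143296475-143296675, minus strand): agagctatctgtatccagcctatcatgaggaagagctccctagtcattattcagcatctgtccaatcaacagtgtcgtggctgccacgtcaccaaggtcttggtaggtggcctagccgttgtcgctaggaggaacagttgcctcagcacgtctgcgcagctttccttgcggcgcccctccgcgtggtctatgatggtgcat
Airn promoter (chr17:12741281-12741481, plus strand): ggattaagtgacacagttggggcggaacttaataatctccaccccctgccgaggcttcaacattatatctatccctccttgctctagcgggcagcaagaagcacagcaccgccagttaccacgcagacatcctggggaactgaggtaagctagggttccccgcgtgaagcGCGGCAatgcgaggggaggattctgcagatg
Mest promoter (chr6:30738107-30738307, plus strand): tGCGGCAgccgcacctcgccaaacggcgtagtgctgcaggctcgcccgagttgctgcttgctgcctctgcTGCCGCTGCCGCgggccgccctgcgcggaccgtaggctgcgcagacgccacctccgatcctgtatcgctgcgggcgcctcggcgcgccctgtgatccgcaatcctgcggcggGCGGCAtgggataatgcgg

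As a contrast, 2 promoters that no library called are shown as RefSeq gives them (GRCm38.p6, 250 bases before to 50 after the start), with the same capitals.
Ndn promoter (chr7:62348027-62348326, plus strand): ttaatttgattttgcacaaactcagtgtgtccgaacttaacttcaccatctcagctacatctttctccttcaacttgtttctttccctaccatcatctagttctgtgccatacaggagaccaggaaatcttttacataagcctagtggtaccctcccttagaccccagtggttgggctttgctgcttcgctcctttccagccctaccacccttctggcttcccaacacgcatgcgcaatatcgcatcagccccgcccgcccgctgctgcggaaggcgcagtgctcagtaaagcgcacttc
Meg3 promoter (chr12:109540746-109541045, plus strand): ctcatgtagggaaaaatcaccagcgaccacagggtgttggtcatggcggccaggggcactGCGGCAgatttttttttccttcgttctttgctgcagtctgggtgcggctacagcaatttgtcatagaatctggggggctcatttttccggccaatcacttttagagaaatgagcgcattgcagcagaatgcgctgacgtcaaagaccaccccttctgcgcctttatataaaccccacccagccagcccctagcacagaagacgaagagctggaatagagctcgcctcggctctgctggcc

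The Mest window held 4 matches to TGCCGC and the Airn window 1, and the H19 and Kcnq1ot1 windows held neither motif. Over all 84777 regions called in at least 2 libraries, 5.39% of windows of the same length held TGCCGC and 9.43% held GGNGGCAG, against 12 and 12 of the 80 such regions at the imprinted loci. For regions called in all 8 libraries it was 7.64% and 9.83% of all 44861, against 6 and 7 of 48. TGCCGC contains a CpG, and the median ratio of observed to expected CpG was 0.302 in the 80 windows and 0.209 in the 84777. In a wider window of 1001 bp, the H19 region held 3 matches to TGCCGC and 2 to GGNGGCAG, which 16.2% and 34.2% of all regions held at least once, and the Mest region held 8 matches to TGCCGC. RefSeq promoter sequences were matched for 26 of the 32 genes, in 39 windows. Of these windows 10 held TGCCGC, or 25.6%, against 11.6% of all 32851 promoters, which unlike the 39 were not selected by genome build. The median ratio of observed to expected CpG was 0.748 in the 13 windows under a peak in all 8 libraries, 0.464 in the 23 under no peak and 0.384 over all promoters. Windows of one gene can overlap, as those of Gnas and Mest do, and a motif match is a description of the letters alone.

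The libraries differed in depth and in the length of their lists. The peak caller kept 49.8 to 169 M fragments per library at 37 °C, where replicates 1 and 4 exceeded 100 M, and 52.7 to 71.2 M at 39 °C, and it called 74026 to 92013 peaks at 37 °C and 54845 to 68410 at 39 °C. Peaks were therefore compared by their percentile, the rank of a peak by −log10 q within its own list, on which 100 is the strongest peak of the list. By construction, weak peaks added to a list lift the percentile of its other peaks. Over the 15818 genes with a promoter peak in all 8 libraries the median difference, 39 °C minus 37 °C, was −2.62 points. Differences of the imprinted genes are given beside that median, which is of promoters ranking higher than most of theirs (median 89.4). Promoters of lower rank can differ by more. Among marker genes named below, Pax6, Msi1 and Th, at mean percentiles of 30.9, 39.1 and 69.4, differed by −23.2, −19.1 and −16.1 points. No median of promoters matched by rank was taken. As a check of the cell label, the promoters of the neural precursor markers Nes, Sox2, Vim, Msi1 and Pax6 were called in all 8 libraries, and those of the blood and muscle genes Ptprc, Hbb-bt, Myod1 and Ttn in none. Calls in all 8 libraries and in none were also common among all coding genes, at 59.9% and 31.3%. Of the 4 dopaminergic markers used here, Th, Nr4a2 and Pitx3 were called in all 8 libraries and Slc6a3, the dopamine transporter, in 4 at 37 °C and 1 at 39 °C. The median summit of the Pitx3 peak lay 1255 bp from the nearest Pitx3 TSS, outside 1 kb. In the study, single-cell RNA-seq gave few or no reads for these 4 genes. Its RT-qPCR and bulk RNA-seq gave higher Th at 39 °C. It concluded that the line is probably unsuited to stand in for dopaminergic neurons.

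Of the 32 imprinted genes, 14 had a promoter peak in all 8 libraries, 11 in none and 7 in some. Among the 26 coding genes 12 were called in all 8 libraries and 7 in none, where 59.9% and 31.3% of all coding genes were. Among the 6 noncoding genes, 2 (Kcnq1ot1 and Airn) were called in all 8 and 4 (H19, Meg3, Rian and Mirg) in none, where 26.3% and 62.7% of all noncoding genes were. All 7 genes called in some libraries were called in fewer at 39 °C than at 37 °C, as were 89.2% of the 3036 such genes of the genome. Over all genes the share was 8.44%, where the imprinted count was 7 of 32. No imprinted gene was called in more at 39 °C, against 0.626% of all genes. The 7 genes called in fewer were Igf2 (3 libraries against 0), Peg3 and Usp29 (3 against 1), Slc22a18, Nnat and Plagl1 (4 against 2) and Mkrn3 (4 against 3). Peg3 and Usp29 share 1 peak, and the count was 4 with promoters of 500 bp and 3 with the 5′ end of each gene alone. Fisher's exact test for a single gene, two-sided, passed the threshold for no gene of the genome after Benjamini-Hochberg adjustment (smallest adjusted p = 1; 4 libraries against 0 gives 0.0286 unadjusted), with 475 genes at an unadjusted p under 0.05 and none of the imprinted genes among them. With equal numbers of peaks per library the count was 0, but that setting keeps only the strongest peaks of each list and removed every promoter peak of 6 of the 7, all but Mkrn3. By parental copy expressed, 9 of 21 paternally expressed genes had a promoter peak in all 8 libraries and 6 in none, and 3 of 9 maternally expressed genes did and 5 had none. Of these 5, 4 are noncoding (H19, Meg3, Rian and Mirg), so parental copy and gene type cannot be told apart in these counts.

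**Figure D1:**
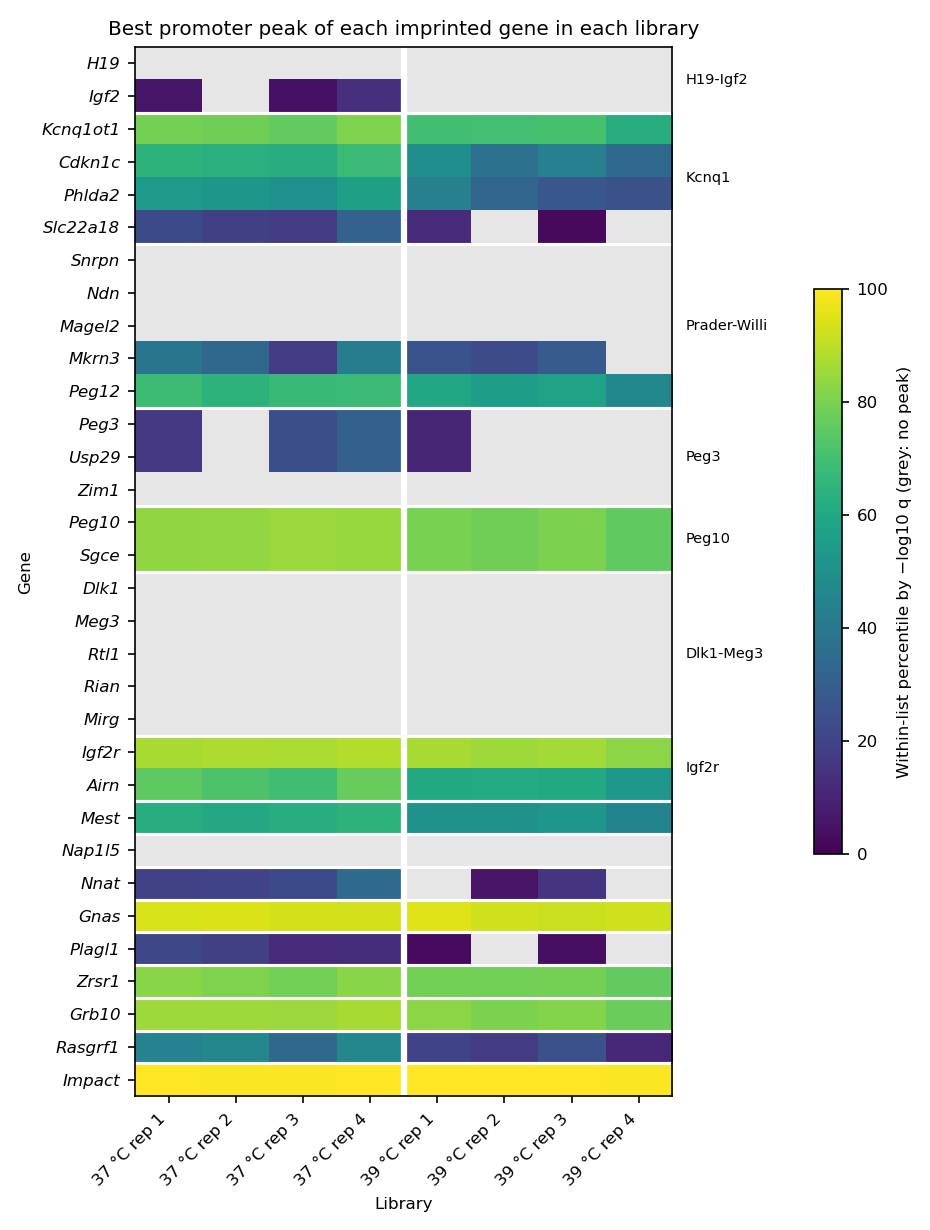
Percentile of the best promoter peak (colour, 0 to 100 within each library's own list by −log10 q) for the 32 imprinted genes in rows, grouped by cluster, and the 8 libraries in columns; grey cells had no promoter peak. The Dlk1-Meg3 rows and Snrpn, Ndn and Magel2 are grey throughout, and the 7 genes with both coloured and grey cells have more grey cells at 39 °C.

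Among the 14 genes called in all 8 libraries, 10 had a lower percentile at 39 °C and 0 a higher one (limma adjusted p under 0.05), where 59.6% and 0.582% of all 15818 genes tested did. The median difference of the 14 was −7.84 points on the whole-list scale. It was −0.211 points among the genes tested, where that of all genes was 0.403, and −1.55 with equal numbers of peaks, where that of all genes was −0.124. The peaks of the 14 ranked lower than most promoters, with 12 of 14 below the all-gene median of 89.4. When percentiles were taken only among the genes tested, 2 of the 14 were lower (Cdkn1c and Airn) and 1 higher (Zrsr1), against 9.24% and 10.6% of all genes. With equal numbers of peaks per library 3 were lower (Cdkn1c, Airn and Kcnq1ot1) and 1 higher (Zrsr1), against 13.5% and 6.32%. Without the 2 libraries over 100 M fragments 2 were lower (Cdkn1c and Airn) and 0 higher, against 12.1% and 0.461%. Cdkn1c and Airn were thus the 2 imprinted genes whose promoter passed the test in one direction under these 4 settings.

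**Figure D2:**
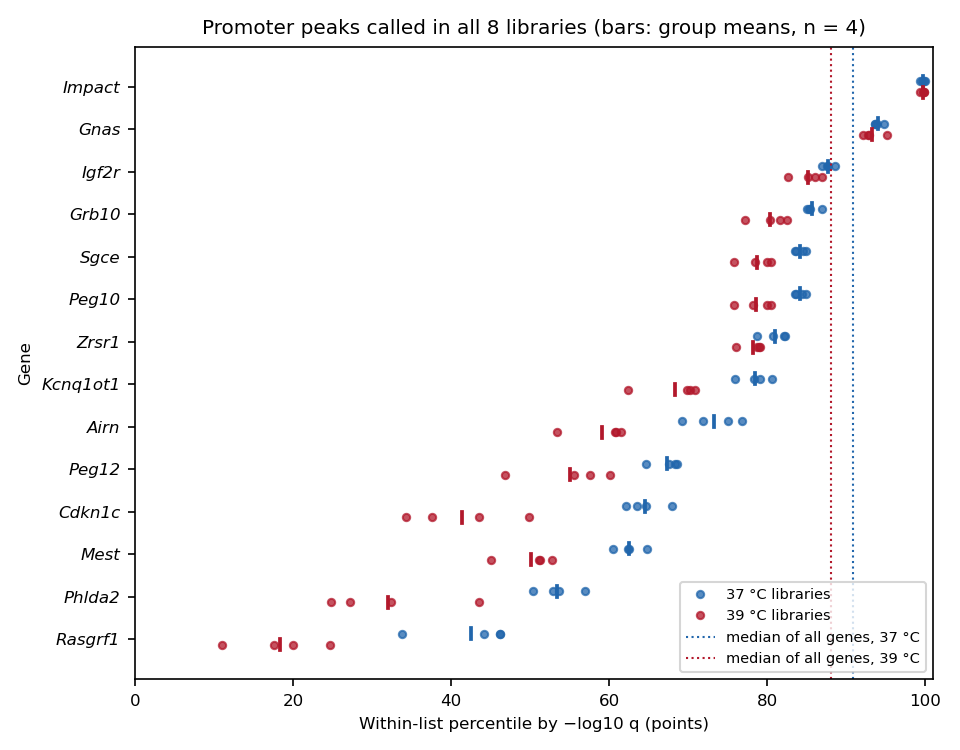
Percentile of the best promoter peak in each library (points) and group means (bars, n = 4 each) for the 14 imprinted genes called in all 8 libraries, blue at 37 °C and red at 39 °C, with the medians of all 15818 such genes dotted. The points of Impact and Gnas lie to the right of both dotted lines and the group means of the other 12 genes to the left of both, and the groups of Cdkn1c, Phlda2 and Rasgrf1 are the furthest apart.

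In the Kcnq1 cluster on chromosome 7, Kcnq1ot1, the paternally expressed noncoding RNA that silences the cluster, keeps its promoter in an intron of Kcnq1. Cdkn1c encodes the cell cycle inhibitor p57, Phlda2 a regulator of placental growth and Slc22a18 a membrane transporter, all 3 expressed from the maternal copy. The 3 promoters of Kcnq1ot1, Cdkn1c and Phlda2 were called in all 8 libraries. All 3 ranked lower at 39 °C on the whole-list scale (limma adjusted p under 0.05), as did 59.6% of all genes tested. Ranked among the genes tested, only Cdkn1c of the 3 passed.

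The Cdkn1c promoter peak (region chr7:143459616-143461737, summit −112 bp from the 5′ end) stood at percentiles 64.7, 63.5, 62.1 and 68.0 in replicates 1 to 4 at 37 °C and at 49.9, 37.6, 43.6 and 34.2 at 39 °C. Every 39 °C library lay below every 37 °C library. The means were 64.6 ± 2.51 and 41.3 ± 6.90 (SD, n = 4 each), a difference of −23.2 points (SE 3.65; limma adjusted p = 0.00129). On the scale of the genes tested alone it was −2.74 points (SE 0.646; limma adjusted p = 0.0178). The peak also narrowed, from 2047, 1280, 1828 and 1331 bp at 37 °C to 992, 845, 973 and 768 bp at 39 °C. This was a change of −0.84 in log2 width (SE 0.17; limma adjusted p = 0.0252). Cdkn1c was the 1 imprinted promoter of 14 that passed the test for width, where 9.88% of all genes were narrower and 0.0569% wider. With log2 depth as a covariate, or without the 2 deep libraries, no imprinted promoter passed the width test, and none did when 37 °C replicate 1 or 39 °C replicate 2, 3 or 4 was left out. The peak also reaches the promoter of another gene, Gm44732. Upstream, 3 further regions at −3000, −5493 and −9071 bp were called in 4 libraries each at 37 °C and in 3, 4 and 1 at 39 °C.

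Kcnq1ot1 (region chr7:143294798-143297228, summit −26 bp from the 5′ end) stood at 79.0, 78.2, 75.9 and 80.6 at 37 °C and 69.8, 70.2, 70.8 and 62.4 at 39 °C. The groups did not overlap, and 39 °C replicate 4, the library with the shortest list, was lowest. The difference was −10.1 points (SE 2.13; limma adjusted p = 0.00391), and among the genes tested −1.66 points (limma adjusted p = 0.108). The same peak passed as lower when ranked among the regions called in all 8 libraries, by a difference of −4.49 points (SE 1.21; limma adjusted p = 0.0111), so its call on a restricted scale depended on the features ranked. Phlda2 (region chr7:143501008-143503469) stood at 53.6, 52.9, 50.4 and 57.0 at 37 °C and 43.5, 32.4, 27.2 and 24.8 at 39 °C, also without overlap, a difference of −21.5 points (SE 4.42; limma adjusted p = 0.00363). The Phlda2 difference among the genes tested was −0.392 points (limma adjusted p = 0.755), so its call rested on the whole-list scale. Slc22a18 had a weak promoter peak at 22.7, 18.8, 17.8 and 31.6 at 37 °C, and at 39 °C it was called in replicates 1 and 3 alone, at 11.9 and 2.41. The median summit of that peak lay 976 bp from the nearest Slc22a18 TSS, near the edge of the promoter window.

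In the H19-Igf2 cluster, H19 is a maternally expressed noncoding RNA and Igf2 a paternally expressed fetal growth factor. Their control region lies upstream of H19 and binds CTCF on the unmethylated maternal copy. No library called a peak at the H19 promoter. All 8 called 1 region at the H19 locus, chr7:142580008-142581016, with its summit −2393 bp from the 5′ end, in the direction where the control region is known to lie. Its percentiles were 53.7, 53.2, 43.6 and 57.3 at 37 °C and 45.9, 39.0, 37.9 and 36.9 at 39 °C. The groups overlapped, since 37 °C replicate 3 lay below 39 °C replicate 1, and the difference was −12.0 points (SE 4.58; limma adjusted p = 0.0276). Among the regions called in all 8 libraries alone it was 2.53 points (SE 3.10; limma adjusted p = 0.549). Igf2 had a weak promoter peak at an internal TSS in 37 °C replicates 1, 3 and 4, at percentiles 5.55, 4.48 and 13.8, and in no library at 39 °C. A second Igf2 region, chr7:142646588-142647272, downstream of the gene, showed the reverse, with no call at 37 °C and percentiles of 25.3, 15.7 and 24.6 in 39 °C replicates 1 to 3.

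In the Prader-Willi cluster on chromosome 7, whose members are expressed from the paternal copy, the promoters of Snrpn (a splicing protein), Ndn (necdin, a neuronal growth suppressor) and Magel2 (a regulator of protein trafficking) were called in no library. The loci of these 3 genes held no peak in any library either. The gap between the nearest called regions on each side was 375131 bp around Snrpn and 206198 bp around Ndn and Magel2, which share it. Mkrn3 and Peg12, which lie next to Ndn and Magel2, had promoter peaks, and the called region nearest to Magel2, 37634 bp away, was that of Mkrn3. Peg12, a retrogene, stood at 68.6, 64.6, 67.5 and 68.3 at 37 °C and 60.1, 55.5, 57.5 and 46.8 at 39 °C, without overlap, a difference of −12.3 points (SE 3.00; limma adjusted p = 0.00687). Its difference among the genes tested was 0.312 points (limma adjusted p = 0.804). Mkrn3, a probable ubiquitin ligase that restrains puberty, stood at 38.8, 33.3, 17.8 and 41.9 at 37 °C and at 26.1, 22.9 and 28.8 in 39 °C replicates 1 to 3, with overlap, and was not called in replicate 4.

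The Dlk1-Meg3 cluster on chromosome 12 was likewise without promoter peaks. Neither Dlk1 (a paternally expressed inhibitor of differentiation), Rtl1 (a retrotransposon-derived placental protein), nor the maternally expressed noncoding RNAs Meg3, Rian and Mirg had one in any library. Meg3 and Rtl1 had no peak in their loci at all and lay in a shared gap of 176129 bp. The cluster still held 5 regions, each called in all 8 libraries. Of these, 2 lay upstream of Dlk1, at −7617 and −3213 bp, and 2 inside Rian. The strongest, chr12:109748965-109750865, lay at the 3′ end of Mirg at percentiles 83.5, 84.6, 82.9 and 86.3 at 37 °C and 80.0, 81.3, 83.0 and 77.3 at 39 °C. It fell on the whole-list scale by 3.95 points (SE 1.49; limma adjusted p = 0.0257), while among the regions called in all 8 libraries the difference was 1.21 points (SE 1.16; limma adjusted p = 0.432). Of the 5, 3 fell on the whole-list scale and 0 passed in either direction among the regions tested, where 62.2% of all regions were lower on the first scale and 22.1% lower and 20% higher on the second.

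In the Peg3 cluster, Peg3 (a zinc finger protein) and Usp29 (a deubiquitinase) are divergent neighbours expressed from the paternal copy, and Zim1 is a maternally expressed zinc finger gene. Peg3 and Usp29 shared 1 weak peak, called in 37 °C replicates 1, 3 and 4 at 16.8, 24.1 and 30.5 and in 39 °C replicate 1 at 10.9. They therefore count once as an observation. Its median summit lay 859 bp from the nearest Peg3 TSS and −1018 bp from that of Usp29, at the edge of the promoter window. The Zim1 locus held no peak, inside a gap of 318710 bp. In all, 6 of the 32 loci (those of Snrpn, Ndn, Magel2, Zim1, Meg3 and Rtl1) held no peak in any library, against 23.3% of all genes.

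Peg10, a retrotransposon-derived gene needed by the placenta, and Sgce, which encodes epsilon-sarcoglycan, start head to head on chromosome 6 and are both expressed from the paternal copy. They shared the region chr6:4746115-4749670, which reaches both promoter windows, although the median summit of its peaks lay 1783 bp from the nearest Peg10 TSS and −1982 bp from that of Sgce, outside 1 kb. The Peg10 promoter peak stood at 83.5, 83.6, 84.9 and 84.4 at 37 °C and 79.9, 78.2, 80.4 and 75.8 at 39 °C, without overlap, a difference of −5.54 points (SE 1.31; limma adjusted p = 0.00613). Beyond the all-gene median the difference was −2.92 points, and among the genes tested it was −0.253 points (limma adjusted p = 0.935). The values of Sgce differed from those of Peg10 in 37 °C replicate 4 and 39 °C replicate 2, where a peak at another Sgce TSS was the stronger.

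A region just past the 3′ end of Peg10, chr6:4760517-4762544, separated the temperatures without exception. Its first base is the last base of the annotated gene, its summits lay 1961, 1964, 1973 and 1967 bp beyond that end in 37 °C replicates 1 to 4, and no promoter window of any gene reaches it. It was called in all 4 libraries at 37 °C, at percentiles 63.0, 56.8, 57.8 and 61.5, and in none at 39 °C. Its peaks had −log10 q of 169, 59.0, 51.2 and 118 and fold enrichment of 9.32, 8.94, 9.73 and 8.39 in replicates 1 to 4, and the fold was 9.73 in the shallowest of them, replicate 3. It was 1 of 2 regions at the imprinted loci restricted to 37 °C, meaning called in 4 of 4 libraries there and 0 of 4 at 39 °C. Among the 5120 such regions in the genome, 9 had a higher mean percentile at 37 °C, and their median was 22.1. The summits of the Peg10 peaks lay 50 to 66 bp from their right edge (see Other observations). Whether reads there map to 1 place was not tested.

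**Figure D3:**
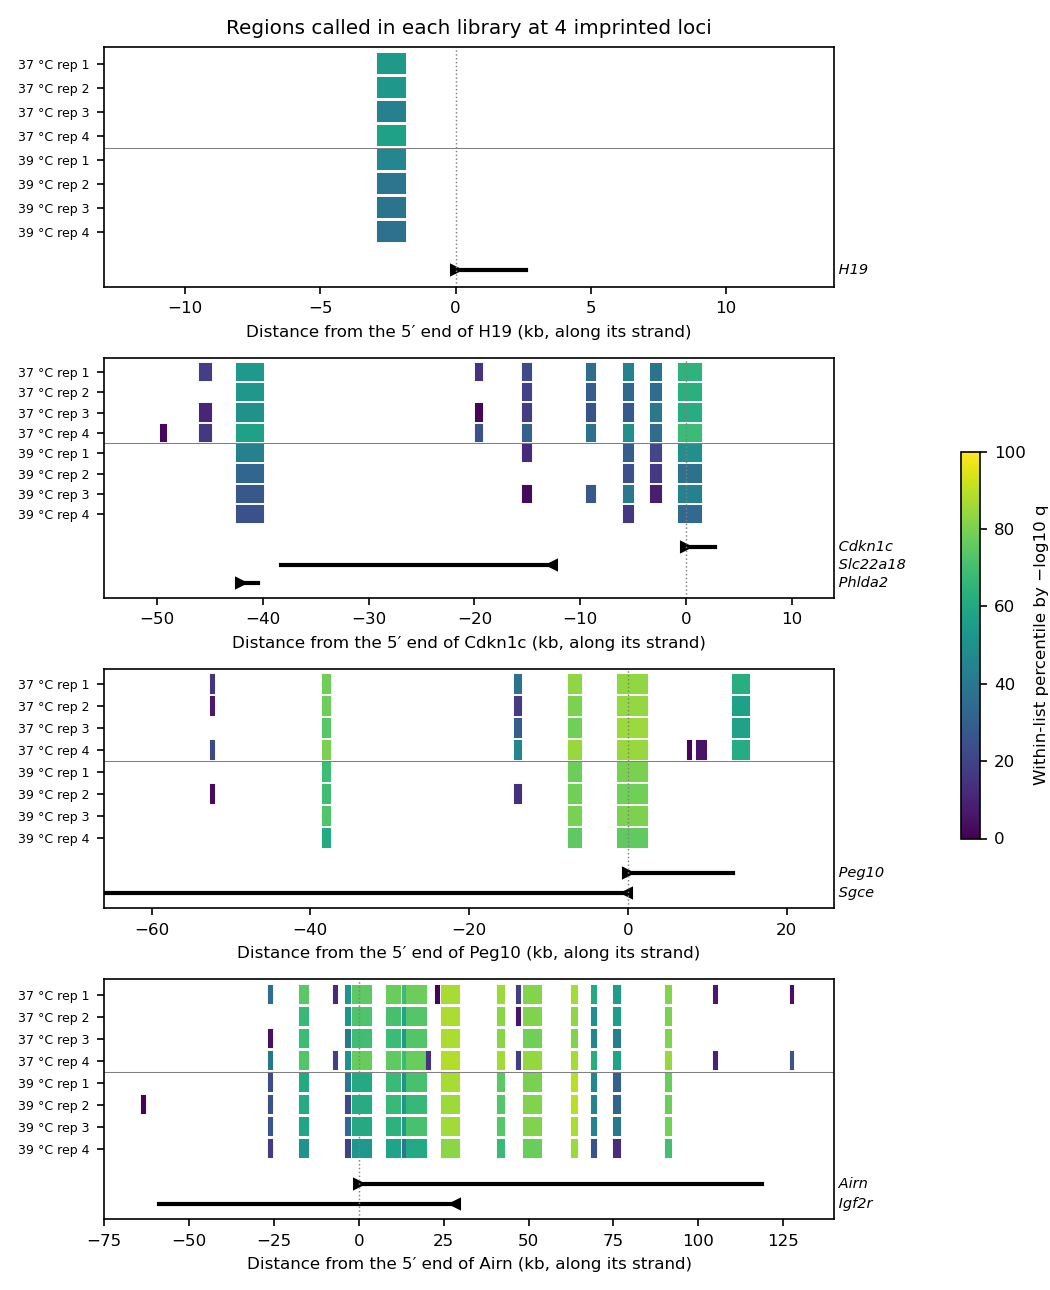
Regions at 4 imprinted loci drawn at their merged width against the distance from the 5′ end of the first named gene (kb), 1 row per library, coloured by percentile (0 to 100 by −log10 q within the list); black lines are genes with an arrowhead at the 5′ end. The Peg10 3′ region is filled in the 4 rows at 37 °C and empty in the 4 rows at 39 °C, while the H19 upstream region is filled in all 8.

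In the Igf2r cluster on chromosome 17, Igf2r encodes the receptor that clears IGF2 and is maternally expressed. Airn is the paternally expressed noncoding RNA that starts inside Igf2r and runs against it. Of the 18 regions called in at least 2 libraries there, 13 were called in all 8, against 52.9% of all regions. The Airn promoter (region chr17:12739740-12744985) stood at 75.1, 71.9, 69.2 and 76.8 at 37 °C and 60.9, 61.5, 60.7 and 53.4 at 39 °C, without overlap, a difference of −14.1 points (SE 2.56; limma adjusted p = 0.00212). Scaled among the genes tested, the difference was −1.82 points (SE 0.542; limma adjusted p = 0.0428). The Igf2r promoter (region chr17:12765764-12770729), with its summit 28322 bp from the Airn 5′ end, stood at 86.9, 87.6, 87.5 and 88.6 at 37 °C and 86.9, 85.2, 86.0 and 82.6 at 39 °C, a difference of −2.45 points (SE 1.10; limma adjusted p = 0.0715). The groups did not overlap, but the lowest value at 37 °C and the highest at 39 °C were equal as rounded here. The Igf2r difference among the genes tested was 3.95 points (limma adjusted p = 0.121).

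Of the 13 regions of the cluster called in all 8 libraries, 11 were lower and 1 higher on the whole-list scale, and 3 were lower and 2 higher among the regions tested. Of all regions 62.2% and 1.48% were on the first scale, and 22.1% and 20% on the second. The 11 include the Igf2r promoter, whose same difference had a limma adjusted p of 0.0477 in the fit over regions and so passed there but not in the fit over genes. Positions of the next 3 regions are distances from the Airn 5′ end. The region at 41849 bp (chr17:12782372-12784047) stood at 85.2, 82.7, 82.3 and 86.0 at 37 °C and 75.0, 73.2, 73.8 and 67.6 at 39 °C, without overlap. It fell by 11.7 points (SE 1.98; limma adjusted p = 1.38e-04), and among the regions called in all 8 libraries the difference was −9.07 points (SE 0.995; limma adjusted p = 3.30e-05). The region at 63609 bp (chr17:12804108-12805635) stood at 86.4, 83.1, 81.2 and 86.7 at 37 °C and 89.2, 89.8, 87.4 and 85.2 at 39 °C. It was higher by 3.57 points (SE 1.29; limma adjusted p = 0.0211), and 2 libraries at 37 °C lay above the lowest at 39 °C. Among the regions tested the difference was 11.2 points (SE 1.19; limma adjusted p = 2.64e-05). It was the 1 region at the imprinted loci that passed as higher on the whole-list scale. That call was lost when 37 °C replicate 3 was left out, and likewise 39 °C replicate 1 or 2. The region at 91136 bp, stood at 81.7 ± 1.92 at 37 °C and 75.9 ± 3.83 at 39 °C (± SD over 4 libraries), a difference of −5.78 points (SE 2.00; limma adjusted p = 0.0166), and among the regions tested the difference was −0.0844 points (SE 1.16; limma adjusted p = 0.964). None of these 3 regions lies within 1 kb of the TSS of any gene in the annotation.

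Over all imprinted loci, 94 distinct regions were called, 80 of them in at least 2 libraries and 48 in all 8 (of the 80, against 52.9% of all 84777 regions). Of the 80, 27 were called in fewer libraries at 39 °C and 4 in more, against 37.9% and 5.46% of all regions. The 4 were the Igf2 region above, a region inside Igf2r called in 3 libraries at 37 °C and 4 at 39 °C, and 2 weak regions downstream of Impact called in 0 against 2 and 0 against 3, all named after their values were seen. The regions restricted to 37 °C numbered 2, against 6.04% of all regions, and those restricted to 39 °C 0, against 0.314%. Without 37 °C replicate 2 the first count was 6 of 80, against 6682 of all 83713 regions. Without 37 °C replicate 3 it was 5 of 80, against 8761 of 84045. The second of the 2 found with all libraries, chr2:174299070-174299946 inside Gnas, was weak, at percentiles 9.06, 1.66, 1.36 and 8.72. Fisher's exact test over all regions gave a smallest adjusted p of 0.450, with 5386 regions at an unadjusted p under 0.05, so no region passed.

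Of the 48 regions called in all 8 libraries, 34 were lower at 39 °C and 1 higher on the whole-list scale (limma adjusted p under 0.05), against 62.2% and 1.48% of the 44861 regions tested. Their median difference was −8.57 points, where that of all regions was −6.84. Among the regions tested alone, 10 were lower and 6 higher, against 22.1% and 20%, and the median was −0.830 points, where that of all regions was −0.148. With equal numbers of peaks, 8 of 45 were lower and 6 higher, against 24.4% and 17%. Without the 2 libraries over 100 M fragments, 14 of 50 were lower and 1 higher, against 24.8% and 2.21%.

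**Figure D4:**
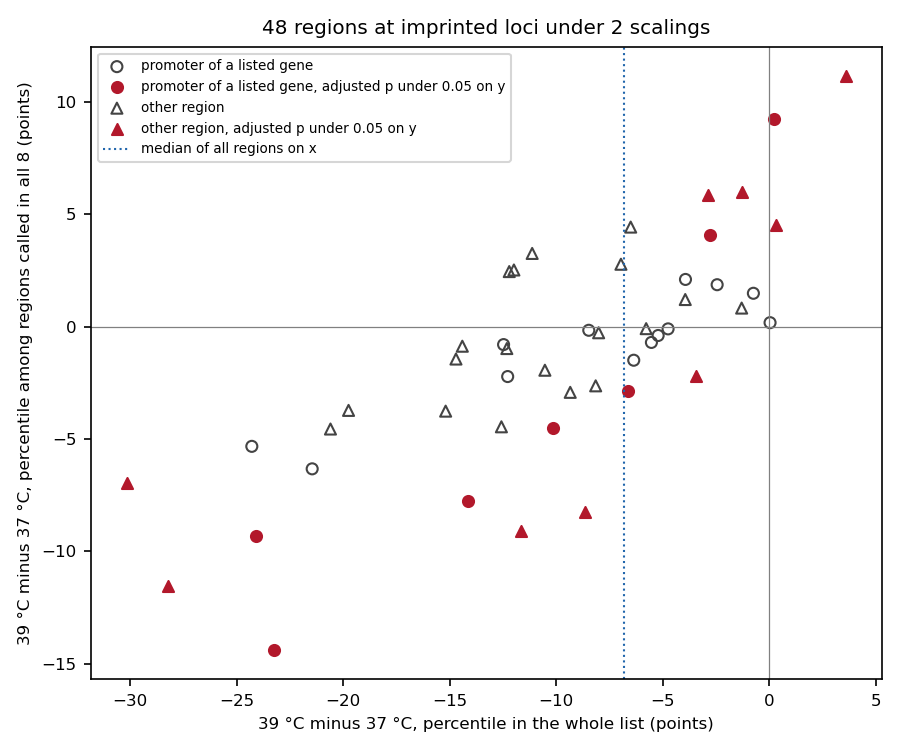
Each point is 1 of the 48 regions at imprinted loci called in all 8 libraries, with its difference between temperatures (39 °C minus 37 °C, percentile points) in the whole lists on the x axis and among the regions called in all 8 libraries on the y axis; circles are promoters of the imprinted genes, triangles other regions, and red marks an adjusted p under 0.05 on the y scale. Most points lie left of 0 on x, and they lie on both sides of 0 on y.

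The genes that lie singly ranged from the strongest promoter of the set to none. Impact, a regulator of translation under stress, had at an internal TSS a peak between percentiles 99.4 and 99.9 in all 8 libraries, with groups that overlapped. The difference was 0.0296 points (SE 0.151; limma adjusted p = 0.873). At the Impact 5′ end a second promoter peak stood at 83.6, 82.3, 82.2 and 84.7 at 37 °C and 78.6, 77.2, 79.5 and 72.0 at 39 °C, without overlap. It differed by −6.37 points (SE 1.79; limma adjusted p = 0.00511) in the fit over regions, and among the regions tested by −1.49 points (SE 1.02; limma adjusted p = 0.269). A region −8412 bp from the Impact 5′ end, outside any promoter window, fell from 93.7, 89.0, 89.9 and 92.2 at 37 °C to 83.8, 84.9, 82.7 and 78.9 at 39 °C. The difference was −8.67 points (SE 1.25; limma adjusted p = 3.62e-05), and among the regions tested it was −8.25 points (SE 1.36; limma adjusted p = 5.22e-04). Gnas encodes the stimulatory G protein alpha subunit and related proteins from several promoters of different parental expression. Its best promoter peak stood at 93.9, 94.7, 93.6 and 93.6 at 37 °C and 95.1, 92.9, 92.1 and 92.7 at 39 °C, with overlap, a difference of −0.753 points (SE 0.650; limma adjusted p = 0.321). A separate Gnas region at the antisense Nespas promoter stood at 83.8 ± 1.44 at 37 °C and 78.6 ± 2.30 at 39 °C (± SD over 4 libraries), and one at a downstream Gnas TSS, chr2:174343045-174344893, at 78.1 ± 2.55 at 37 °C and 78.4 ± 2.61 at 39 °C. The last was higher among the regions tested by 9.27 points (SE 0.967; limma adjusted p = 2.34e-05), and on the whole-list scale the difference was 0.215 points (SE 1.96; limma adjusted p = 0.929).

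Mest, a paternally expressed gene of the hydrolase fold family, stood at 62.5, 60.4, 62.4 and 64.8 at 37 °C and 51.3, 51.1, 52.7 and 45.1 at 39 °C, without overlap, a difference of −12.5 points (SE 2.68; limma adjusted p = 0.00424). With ranks among the genes tested it was 0.706 points (limma adjusted p = 0.501). Zrsr1, a splicing factor gene inside an intron of Commd1, stood at 82.1, 80.7, 78.7 and 82.2 at 37 °C and 78.9, 78.7, 79.0 and 76.0 at 39 °C, a difference of −2.76 points (SE 1.37; limma adjusted p = 0.0976). Its groups overlapped on the whole-list scale, and among the genes tested it was higher at 39 °C by 4.95 points (SE 0.902; limma adjusted p = 0.00564). The Zrsr1 peak also covers a Commd1 TSS.

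Grb10, an adaptor that restrains insulin signalling and whose expressed copy differs by tissue, had 2 strong regions that reach promoter windows. The upstream one (chr11:12036044-12038280) stood at 85.1 ± 0.368 at 37 °C and 80.4 ± 2.34 at 39 °C and the downstream one (chr11:11938966-11940486) at 85.4 ± 1.09 at 37 °C and 78.8 ± 1.97 at 39 °C (± SD over 4 libraries). The best peak came from the downstream promoter in 37 °C replicates 2 and 4 and from the upstream one in the other 6 libraries. On the whole-list scale the downstream region with the summit outside 1 kb differed by −6.62 points (SE 1.45; limma adjusted p = 9.21e-04), and among the regions tested by −2.86 points (SE 0.975; limma adjusted p = 0.0337). A Grb10 region downstream of the gene body, chr11:11928289-11929403, fell from 57.3, 49.0, 40.4 and 60.7 at 37 °C to 15.1, 35.5, 31.2 and 12.7 at 39 °C, a difference of −28.2 points (SE 5.99; limma adjusted p = 7.46e-04). Among the regions tested it differed by −11.5 points (SE 2.92; limma adjusted p = 0.00784).

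Rasgrf1, a paternally expressed exchange factor for RAS that is active in neurons, had the weakest promoter of the 14, at 44.1, 46.2, 33.8 and 46.1 at 37 °C and 20.0, 17.6, 24.6 and 11.0 at 39 °C. The groups did not overlap, with a difference of −24.3 points (SE 4.82; limma adjusted p = 0.00314), while among the genes tested the difference was −0.462 points (limma adjusted p = 0.501). A region −6938 bp from its 5′ end (chr9:89902358-89903165) stood at 50.7, 39.4, 26.8 and 43.7 at 37 °C and 15.1, 10.9, 10.8 and 3.28 at 39 °C, a difference of −30.1 points (SE 6.10; limma adjusted p = 5.19e-04) on the whole-list scale and of −6.97 points (SE 2.06; limma adjusted p = 0.0176) among the regions tested. A second region between it and the promoter moved the other way on the latter scale, by 5.88 points (SE 1.45; limma adjusted p = 0.00679).

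Nnat, a paternally expressed membrane protein of the developing brain, lies inside an intron of Blcap. Its promoter peak was weak, at 19.8, 20.1, 22.6 and 34.5 at 37 °C and at 5.33 and 15.4 in 39 °C replicates 2 and 3 alone. By contrast, the highest-ranked region at these loci outside the promoters of all genes lay −7390 bp from its 5′ end (chr2:157551563-157554263), at 94.4, 92.5, 92.5 and 95.0 at 37 °C and 90.5, 90.9, 90.8 and 88.5 at 39 °C. Those groups did not overlap, the difference was −3.43 points (SE 0.715; limma adjusted p = 6.56e-04), and among the regions tested it was −2.20 points (SE 0.667; limma adjusted p = 0.0197). Plagl1, a zinc finger regulator of other imprinted genes, had a weak promoter peak at 21.5, 18.8, 12.3 and 12.9 at 37 °C and at 3.02 and 4.29 in 39 °C replicates 1 and 3 alone. Nap1l5, a retrogene, had no promoter peak, and 1 region in its flank was called in 3 libraries at 37 °C and none at 39 °C.

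Imprints are read and kept by other proteins: ZFP57 and ZFP445 bind methylated control regions, TRIM28 and SETDB1 add repressive chromatin, DNMT1 with UHRF1 copies the methylation at replication, and TET enzymes oxidise it. Of 18 genes of this machinery, all coding, 15 had a promoter peak in all 8 libraries, as did 59.9% of all coding genes. Ctcfl and Dppa3, both genes of the germ line and early embryo, had none, and Dnmt3l was called in 2 libraries at 37 °C and 0 at 39 °C. Of the 15, 13 were lower at 39 °C and 0 higher on the whole-list scale, against the same 59.6% and 0.582% of all genes: Zfp57, Zfp445, Setdb1, Dnmt1, Uhrf1, Dnmt3a, Dnmt3b, Ctcf, Tet1, Tet2, Tet3, Smchd1 and Hells. Ranked among the genes tested, 5 were lower and 0 higher, against 9.24% and 10.6% of all genes. These were Dnmt1, the maintenance methyltransferase, with a difference of −14.5 points (limma adjusted p = 8.25e-04), Uhrf1, its partner at replication forks, with −19.3 points (limma adjusted p = 0.00105), Hells, a chromatin remodeller, Smchd1 and Tet1. The promoters of Trim28 and Yy1 differed by −1.07 and −0.0182 points on the whole-list scale and did not pass the test (limma adjusted p = 0.153 and 0.933).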

How the data were processed

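Accessibility peaks were compared in 8 ATAC-seq libraries of SN4741 cells, 4 per temperature, grouped by the labels. Per the labels and the study's methods, the authors aligned reads to mm10 with Bowtie2 2.4.1, removed duplicates with Picard 2.26.11 and called peaks per library with MACS3 3.0.0a7 without a control. The deposited lists give each peak's width, its pileup signal in unscaled fragments, fold enrichment as a ratio to 1 genome-wide background, and −log10 p-value and −log10 q-value. They hold no read counts, so the count test of the study was not run. The caller kept 49.8 to 169 M fragments per library, which sets how weak a peak could be called.

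Peaks overlapping 1 kb around any TSS of 32088 genes (GENCODE M21) were taken, and the strongest by −log10 q was kept per gene and library. Overlapping peaks were joined across libraries into regions, and those called in at least 2 libraries were kept. Percentiles and log2 widths were fitted with limma 3.58.1 (R 4.3.3, eBayes with trend, temperature as the only term) across all genes, or regions, called in all 8 libraries, with Benjamini-Hochberg adjustment and a threshold of 0.05, after a test on simulated data. Presence was tested by Fisher's exact test. Adjusted p-values given in the report come from limma or, where named, from Fisher's test. Regions were named when restricted to 1 temperature, when among the 10 smallest p per direction past the threshold, or when among the 5 highest outside promoters, and other regions were added after their values were seen, so that each locus is described. Members and lists were chosen with earlier results of these data known. Alternatives were peaks of −log10 q at least 5, equal numbers of peaks (the 54845 highest), other promoter and locus windows, the gene 5′ end alone, summits within 1 kb, 50% coverage of a region, no libraries over 100 M fragments, each library left out, log2 depth or the replicate number in the fit, logit percentiles, and percentiles among the features tested. The library numbers were not taken to pair the samples, because the correlation of same-numbered libraries over promoter percentiles ran from −0.507 to 0.297. Sequences were read with pysam 0.24.0 from GRCm38.p6, whose chromosomes are those of mm10, and the sequences of some regions are not reported here.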

Additional observations from a re-analysis of the deposited data

Results flagged for a closer look

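Within each group of 4 libraries, values of promoters and of the named regions were checked for a library standing apart by Dixon's criterion (the gap to the nearest value over the range, at the 95% level). Of 92 groups 11 were marked, where chance marks about 1 in 20 independent groups. These groups share libraries, and the 11 hold the Airn and Rasgrf1 peaks both as promoter and as region, so that rate cannot judge the count. In 39 °C replicate 4, the library with the shortest list, the percentile was apart for Kcnq1ot1 (62.4, the others 69.8 to 70.8), Airn (53.4, the others 60.7 to 61.5, as promoter and as region), Zrsr1 (76.0, the others 78.7 to 79.0) and the region at 91136 bp from the Airn 5′ end (70.2, the others 77.2 to 78.6). In the same library the Peg10 promoter peak was 3282 bp wide (the others 3418 to 3446 bp). The part of list length in these values was not tested.

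In 37 °C replicate 3, the library with the fewest fragments, Rasgrf1 stood at 33.8 (the others 44.1 to 46.2, as promoter and as region). In 37 °C replicate 1, the deepest, the Igf2r promoter peak was 4859 bp wide (the others 2236 to 2467 bp). The best Sgce peak was 1368 bp wide in 37 °C replicate 4 (the others 3369 to 3556 bp) and 1235 bp in 39 °C replicate 2 (the others 3282 to 3446 bp). In these 2 libraries the best peak was at another TSS, inside Sgce, and not the one shared with Peg10.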

How the results depend on the processing

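With single libraries left out, 14 to 15 imprinted genes had a promoter peak in every library, 11 in none, 6 to 7 in a smaller share at 39 °C and 0 in a larger one. In the same fits 10 to 12 were lower at 39 °C and 0 higher, 0 to 2 were narrower and 0 wider. Of the regions 26 to 38 were lower and 0 to 1 higher, 2 to 6 were restricted to 37 °C and 0 to 2 to 39 °C. The 6 were without 37 °C replicate 2, 5 were without 37 °C replicate 3, and the 2 restricted to 39 °C were without 39 °C replicate 4. No promoter was called narrower without 37 °C replicate 1 or 39 °C replicate 2, 3 or 4, and 2 were without 37 °C replicate 3. Of all promoters tested in these fits, 6275 of 15819 to 9784 of 15834 were lower and 561 of 15819 to 4161 of 15837 narrower. Of all regions tested, 21250 of 44958 to 30348 of 45551 were lower and 410 of 45077 to 1250 of 50137 higher. Of all regions called in at least 2 libraries, 5191 of 84601 to 8761 of 84045 were restricted to 37 °C, and 274 of 84045 to 790 of 84601 to 39 °C.

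With equal numbers of peaks, 17 genes had no promoter peak, 0 were called in a smaller share at 39 °C, 3 were lower and 1 higher, and 8 regions were lower and 6 higher. With percentiles among the features tested, 2 genes were lower and 1 higher, and 10 regions were lower and 6 higher. Without the libraries over 100 M fragments, 2 genes were lower, 0 narrower and 14 regions lower, and with depth as a covariate 0 genes were narrower. With that covariate 10 of 14 genes and 23 of 48 regions were lower, against 5513 of all 15818 genes and 18540 of all 44861 regions. With peaks of −log10 q at least 5, 10 of 14 genes and 24 of 47 regions were lower, against 6039 of 15606 and 18686 of 42956. With 5 kb promoters 7 genes had no peak, with the 5′ end alone 17 had none and 3 a smaller share at 39 °C, and with 500 bp 4 had a smaller share. With 50 kb flanks 52 of 78 regions were lower and 3 higher, where 62.2% and 1.48% of all regions were. Of all regions, 24.4% were lower and 17% higher with equal numbers, and 24.8% lower without the deep libraries.

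With the replicate block, 10 promoters were lower, 1 narrower and 0 higher or wider, and 23 regions were lower and 1 higher. Of all promoters in these fits, 46% were lower and 0.411% higher, and 3.94% were narrower and 0.0126% wider. Of all regions, 44.2% were lower and 0.856% higher. Same-numbered libraries did not deviate together, so these fits are given for completeness.

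Signs turned as follows. Percentile differences among the features tested became 4.73 points for Gnas, 0.706 for Mest, 0.312 for Peg12, 4.95 for Zrsr1, 3.95 for Igf2r and 1.21 for the Mirg region. With equal numbers they became 1.18 for Gnas, 3.11 for Zrsr1, 1.37 for Igf2r and 0.703 for the Mirg region. Impact ran from −0.066 to 0.13 points with single libraries left out and was −6.37 at its 5′ end alone. Log2 width differences, all short of the threshold, turned with depth as a covariate to 0.0062 (Gnas), 0.041 (Zrsr1) and 0.015 (Impact), and without the deep libraries to 0.0023, 0.046 and 0.022. With single libraries left out, log2 width ran from −0.069 to 0.029 for Zrsr1 and from −0.40 to 0.30 for Sgce, highest without 39 °C replicate 2. Grb10 turned to −0.029 with 500 bp promoters and −0.18 at the 5′ end alone. For the 14 promoters and the 15 regions named by rule, 22 and 21 alternatives lost a percentile call, 6 lost and 1 gained a width call, and 2 gained a percentile call. Unless an alternative's own construction shows it, the cause was not tested.

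Limits are that the lists hold called peaks and not reads, so a region without a call is not shown to be closed, that depth and list length moved with temperature, and that alleles were not separated.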

Other observations

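The region past the Peg10 3′ end that was restricted to 37 °C had an uneven shape. Its summit lay 66, 62, 50 and 59 bp from the right edge of the peak in replicates 1 to 4, and the right edges fell between positions 4762540 and 4762544 of chromosome 6 in the 4 libraries, while the left edges ran from 4760517 to 4761375. The peaks were 1864, 1237, 1166 and 2027 bp wide. Of all peaks at least 1000 bp wide, those with a summit within 70 bp of an edge made up 0.0619% to 0.154% in the 37 °C lists and 0.0451% to 0.0660% in the 39 °C lists, limits chosen after the peaks were seen. Whether reads there map to 1 place was not tested.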
